A study of Mus musculus with 6 samples.

Results

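The genes described here are 44 genes of the Toll-like receptor (TLR) and NF-kB pathway, and their ATF3 peaks were all peaks of the deposited lists that carried one of these gene names. A peak carries the name of the gene with the nearest transcriptional start site (TSS). Of the 44 genes, 21 had at least 1 peak. The 71 peaks of these genes were among 16759 peaks in 6 lists. ATF3 binding had been mapped by ChIP-seq, in which chromatin bound by a protein is precipitated with an antibody and sequenced, in bone marrow-derived macrophages (BMDMs) grown from mouse marrow with 40 ng/ml of M-CSF. The mice, 6 to 8 weeks of age, were either wild-type C57BL/6 (WT, Atf3 +/+) or ATF3-deficient (KO, Atf3 -/-). In each genotype the cells had received medium alone (unstimulated), 2 mg/ml of HDL for 6 h, or the same HDL followed by 100 nM of CpG for 4 h. HDL carries cholesterol away from cells, and CpG DNA is the ligand of TLR9. The 3 biological replicates of each group had been joined before alignment, so that each group is 1 pooled library of 37137377 to 75534584 reads. No spread between cultures or mice can therefore be given, every test on reads compares 2 or 4 libraries, and condition and library cannot be told apart. All intervals cover counting error only. The lists hold ChIP tags and no RNA, so the loss of Atf3 in KO cells and the macrophage identity were not checked from transcripts.

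TLRs recognise microbial molecules and, through adaptors such as MyD88 and TRIF, activate kinases and ubiquitin ligases that converge on the IKK complex and on MAP kinases. IKK releases NF-kB dimers from their inhibitors, and the dimers then induce inflammatory genes. In macrophages ATF3 is a stress- and TLR-inducible factor of the basic leucine zipper (bZIP) family that is known as a negative regulator of cytokine genes. bZIP factors bind the AP-1 sequence TGAGTCA and the cAMP response element (CRE) TGACGTCA, and dimers of C/EBP and ATF factors bind TGATGCAA.

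A standard peak is one called by MACS on the WT library alone. A KOIN-corrected peak was called with the KO library as background and needed a WT tag value of 2 or more times that of KO, with tags scaled to a library size of 10000000 (normalised tags). Standard peaks sharing at least 1 bp with a KOIN-corrected peak of the same condition are called kept here, and all others removed. The 44 genes had 45 of the 11888 standard peaks and 26 of the 4871 KOIN-corrected peaks, and all 26 had a standard peak with identical coordinates. Joined across conditions, the 45 standard peaks formed 31 sites, of which 21 were kept in at least 1 condition and 10 in none. The kept sites belonged to 16 genes (Tlr2, Tlr4, Tlr5, Cd14, Ticam1, Irak2, Traf3, Map3k8, Tbk1, Ikbke, Nfkbib, Nfkbie, Card9, Malt1, Mapk14 and Mapkapk2). In 5 genes (Tlr3, Ikbkb, Map3k7, Nfkb1 and Tab2) every standard peak was removed. The other 23 genes (Tlr1, Tlr6, Tlr9, Ly96, Unc93b1, Myd88, Ticam2, Tirap, Irak1, Irak4, Traf1, Traf2, Traf6, Tab1, Ripk1, Ripk2, Chuk, Nfkb2, Rel, Rela, Relb, Bcl10 and Mapk8) had no peak of their own name in any list. The absence of a called peak is not a measurement of 0 tags, since the lists give tags only within peaks.

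Sequences of 61 bp from the mm9 genome are shown for sites with a bZIP sequence near the peak centre and, for comparison, for a removed peak with a CRE and one on a simple repeat. They are printed on the forward strand, 5' to 3', with the bZIP sequence in capitals.
Card9 promoter (chr2:26215639-26215699): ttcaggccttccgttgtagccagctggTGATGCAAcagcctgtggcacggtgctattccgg
Traf3 intron 1 (chr12:112425395-112425455): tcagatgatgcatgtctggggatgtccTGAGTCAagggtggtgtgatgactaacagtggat
Tlr5 upstream (chr1:184838661-184838721): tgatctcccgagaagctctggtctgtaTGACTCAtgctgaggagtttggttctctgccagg
Tlr2 upstream (chr3:83649215-83649275): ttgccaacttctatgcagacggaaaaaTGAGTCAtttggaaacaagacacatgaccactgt
Tlr4 intron 1 (chr4:66489845-66489905): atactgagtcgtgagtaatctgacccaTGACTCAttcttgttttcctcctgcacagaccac
Nfkbie promoter (chr17:45692466-45692526): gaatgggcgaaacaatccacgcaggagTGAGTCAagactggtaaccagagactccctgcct
Tab2 upstream, removed (chr10:7836870-7836930): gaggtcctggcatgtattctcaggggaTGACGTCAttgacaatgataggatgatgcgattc
Map3k7 distal, removed (chr4:31330769-31330829): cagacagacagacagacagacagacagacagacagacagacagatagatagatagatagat
The Map3k7 window holds none of the bZIP sequences and consists of short units repeated in tandem. In the other windows the capitals mark TGATGCAA at Card9, CRE at Tab2 and AP-1 (TGAGTCA or, read on the other strand, TGACTCA) at the remaining sites.

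The AP-1 sequence lay within 100 bp of the centre in 8 of the 45 standard peaks of these genes, at 5 sites (Nfkbie, Tlr2, Tlr4, Tlr5 and Traf3). Among kept peaks it was found in 7 of 26 (26.9%, Wilson 95% interval 13.7 to 46.1%), beside 26.2% of the 4594 kept peaks of other genes. Among removed peaks it was found in 1 of 19 (5.26%), the Tlr2 peak of HDL + CpG cells, beside 7.59% of 7249 removed peaks of other genes. Pooled over conditions, the share with AP-1 at the pathway genes was thus close to that of kept and removed peaks elsewhere. By condition, kept peaks had it in 4 of 13 cases with HDL (30.8%, 12.7 to 57.6%) beside 21.5% elsewhere. With HDL + CpG these were 2 of 11 (18.2%, 5.14 to 47.7%) beside 38.9%, and in unstimulated cells 1 of 2 beside 25.5%. TGATGCAA was present in all 3 peaks of the Card9 promoter and in no other peak of these genes, and 2.49% of the standard peaks of other genes had it within 100 bp of the centre. The CRE within 100 bp was found once, at Tab2, beside 0.574% elsewhere. The NF-kB consensus was found within 100 bp in the kept promoter peaks of Nfkbie and Malt1, beside 3.31% of the standard peaks of other genes. All sequences were searched on both strands, and a match is a description of the letters only.

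In HDL-treated cells, 11 of the 14 pathway genes with a standard peak also had a KOIN-corrected peak (78.6%, Wilson 95% interval 52.4 to 92.4%), compared with 63% of 3860 other genes. With HDL + CpG this share was 10 of 13 (76.9%, 49.7 to 91.8%), compared with 34.7% of 2875 other genes. In unstimulated cells it was 2 of 7 (28.6%, 8.22 to 64.1%), compared with 24.9% of 2209 other genes. In HDL + CpG cells the share of the other genes lay below the interval of the pathway genes, whereas in the other conditions it lay inside. With genes counted only by peaks within 10 kb of the TSS, the HDL + CpG share was 6 of 9 (66.7%, 35.4 to 87.9%) beside 45.1% of other genes, which then lay inside the interval. Of the HDL + CpG standard peaks, 9 of 18 at the pathway genes and 22.9% at other genes lay within 10 kb. The genes were not drawn at random, so these shares are a description. Counted by peaks, KOIN correction left 2 of 7 standard peaks in unstimulated cells beside 20.6% of those of other genes. With HDL it left 13 of 20 (65.0%, 43.3 to 81.9%) beside 54.8%. With HDL + CpG it left 11 of 18 (61.1%, 38.6 to 79.7%) beside 29.6%. The lists differed in score, a MACS value that grows with the significance of a peak. No standard peak of the pathway genes had a score of at least 100, the highest being 98.8 at Card9 with HDL, while 17.6 to 22.7% of the peaks of other genes did. With a score minimum of 60 applied to both lists, 8.24% of the standard peaks of other genes overlapped a KOIN-corrected peak in unstimulated cells. This share was 43.7% with HDL and 19.4% with HDL + CpG, and the pathway genes had 1, 7 and 1 such standard peaks. A standard peak whose KOIN-corrected peak scored under 60 was not counted as kept there. These values therefore do not show whether a higher score went with a lower kept share. The part of the score and of the distance to the TSS in the difference was not tested. Since each library is a bulk of cells, fewer cells with a bound site and less ATF3 per cell cannot be told apart.

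**Figure D1:**
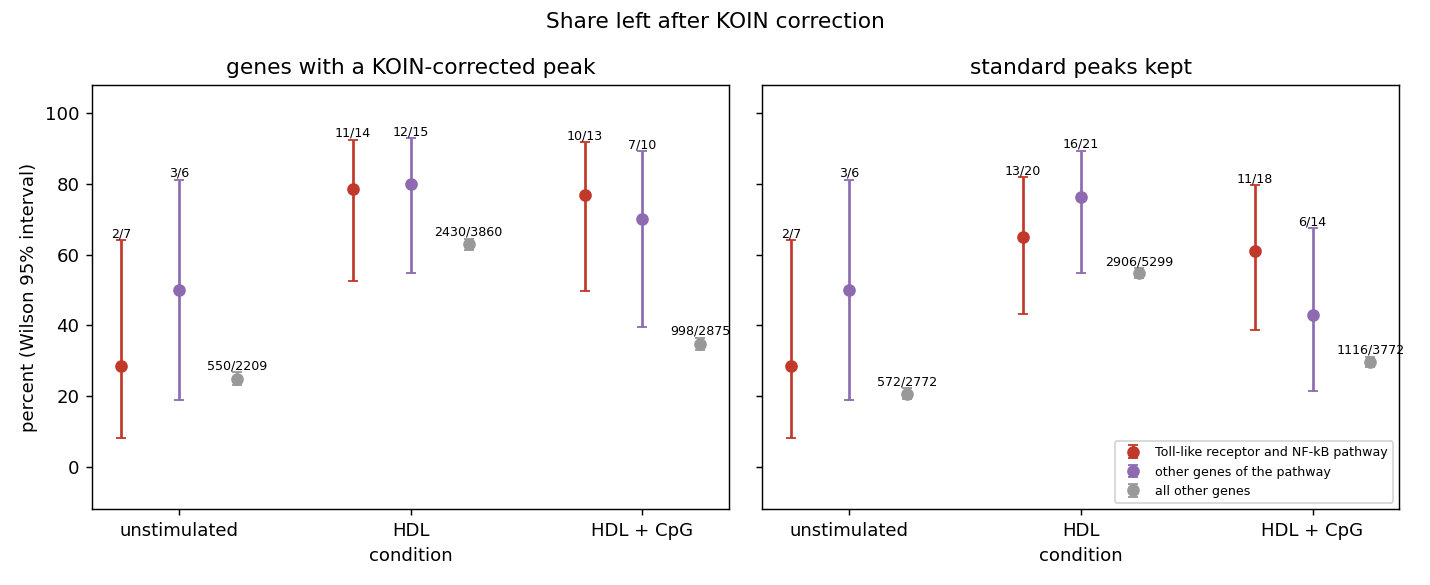
Share left after KOIN correction, as genes with a standard peak that also have a KOIN-corrected peak (left) and as standard peaks kept (right), in percent per condition. Points are the 44 pathway genes, other genes of the same pathway and all other genes, bars are Wilson 95% intervals, and the fractions give the counts. With HDL + CpG, 10 of 13 pathway genes were left beside 34.7% of other genes.

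WT and KO reads were compared at each standard peak by a two-sided exact binomial test, with p-values adjusted by Benjamini-Hochberg over all standard peaks of the condition. Ranges in parentheses after a WT/KO ratio are exact 95% intervals. Peaks with more WT reads at an adjusted p under 0.05 made up 56.2% of all standard peaks in unstimulated cells, and 4 of 7 among the pathway genes. With HDL these were 79.5% of all peaks and 19 of 20 at the pathway genes, and with HDL + CpG 40.9% and 14 of 18. Since standard peaks were called on WT and kept peaks had also passed the 2-fold filter, a higher WT count was partly set in advance. All 26 kept peaks passed the test, as did nearly all kept peaks of other genes, and so did 11 of the 19 removed ones. Of the removed ones, 2 of 5 in unstimulated, 6 of 7 in HDL and 3 of 7 in HDL + CpG cells passed. Among removed peaks of other genes these were 987 of 2200, 1305 of 2393 and 430 of 2656. No peak of these genes had more KO reads at that threshold. Over all genes, removed standard peaks also lay above 1, with a median WT/KO of 1.70 with HDL, 1.49 in unstimulated and 1.12 in HDL + CpG cells. Those of the pathway genes alone had medians of 1.93, 1.66 and 1.33 in the same order. When reads were scaled so that this median became 1, 8 of 20 peaks passed with HDL (at Card9, Cd14, Tlr5, Nfkbib, 3 sites of Ikbke and 1 of Map3k7), 13 of 18 with HDL + CpG and 2 of 7 in unstimulated cells. The other 11 HDL calls (Tlr2, Tlr3, Tlr4, Ticam1, Traf3, Tbk1, Map3k8, the second Tlr5 site and the nearer Map3k7 sites) did not pass then, nor did Tab2 and Card9 in unstimulated cells or Tlr2 with HDL + CpG. Kept peaks of the pathway genes had a WT/KO of 2.15 to 8.45 (median 3.44) and removed ones of 0.763 to 3.07 (median 1.69). The kept peaks nearest to the 2-fold limit were Ticam1 with HDL (2.15) and Tbk1 with HDL + CpG (2.18), and the removed ones just under it were Tlr2 with HDL + CpG (1.99) and Tlr2 with HDL (1.97). The 4 removed peaks above the limit lay at Tab2, at Map3k7 (2 peaks) and at Ikbke.

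**Figure D2:**
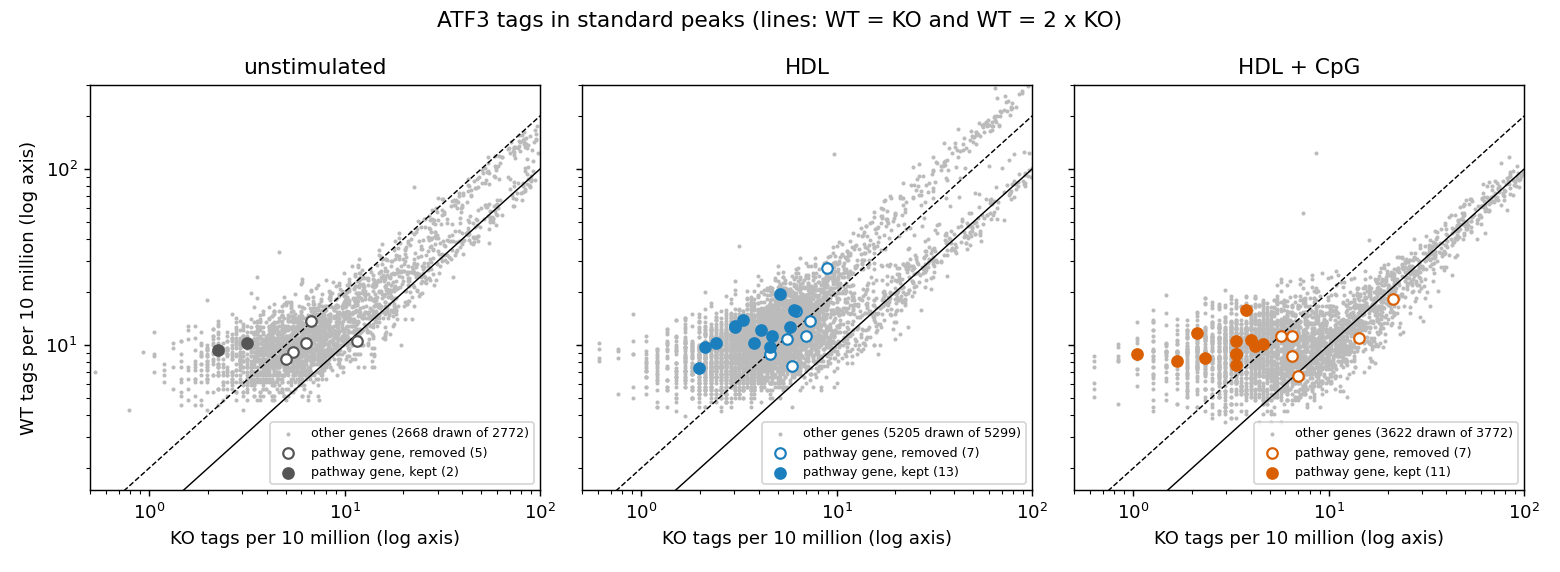
WT against KO normalised tags (log axes) in standard peaks of the 3 conditions, with kept peaks of the pathway genes filled, removed ones open and peaks of other genes in gray. The solid line marks equal tags and the dashed line WT at 2 times KO, and gray points beyond the axes were not drawn. Kept peaks of the pathway genes held 7.38 to 19.5 WT tags and 1.05 to 6.05 KO tags.

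Among the receptors, 5 of 10 genes had a standard peak and 4 a kept one. The site of Tlr4, the receptor of lipopolysaccharide, lay in its intron 1, 1.07 kb downstream of the TSS (chr4:66489461-66490374 with HDL). It held 12.7 WT and 5.75 KO tags with HDL (48 and 38 reads) and 8.89 WT and 1.05 KO tags with HDL + CpG (44 and 5 reads). WT was thus above KO in both conditions and the KO library was nearly empty there in the second. The peak was 914 bp wide with HDL and 595 bp with HDL + CpG. Per kb of peak, WT tags were 13.8 and 14.9 and KO tags 6.29 and 1.76. By width, WT thus differed little and KO was lower with HDL + CpG. WT/KO was 2.20 (1.41 to 3.46, adjusted exact p = 5.82e-04, exact binomial test) with HDL and 8.45 (3.36 to 27.3, adjusted exact p = 2.43e-07, same test) with HDL + CpG. The HDL call was lost under the scaling to removed peaks (WT/KO 1.30, adjusted exact p = 0.352). The HDL + CpG ratio was higher than 99.2% of those in its list, and no peak was called there in unstimulated cells.

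Tlr2, the receptor of bacterial lipopeptides, had 3 intergenic sites upstream of its TSS. At the nearest, 3.74 kb upstream (chr3:83648777-83649761), WT and KO tags were 15.8 and 6.05 with HDL and 11.3 and 6.53 with HDL + CpG. WT/KO was 2.61 (1.72 to 4.00, adjusted exact p = 7.17e-06) and the peak was kept with HDL, while with HDL + CpG it was 1.73 (1.10 to 2.78, adjusted exact p = 0.0330) and the peak was removed. The peak was 985 bp wide with HDL and 825 bp with HDL + CpG. Per kb of peak, WT tags were 16.1 and 13.7 and KO tags 6.14 and 7.92. By width, WT was thus lower and KO higher at this site with HDL + CpG. This is the site with the AP-1 sequence shown above. The site 21.6 kb upstream was kept in unstimulated cells, with 10.2 WT and 3.18 KO tags (WT/KO 3.22, 1.88 to 5.61, adjusted exact p = 4.51e-05), and removed with HDL, with 8.96 and 4.54 tags (1.97, 1.17 to 3.34, adjusted exact p = 0.0123). The third site, 43.8 kb upstream on an MIRb element, was removed with HDL + CpG (11.3 WT and 5.68 KO tags, WT/KO 1.99, adjusted exact p = 0.00854). Tlr2 was thus the gene with a kept peak at 1 site in unstimulated and at another in HDL-treated cells. This is a difference in the kept label. At the site 21.6 kb upstream, WT/KO was not called different between these conditions (ratio of both ratios 0.613, 0.284 to 1.32, adjusted exact p = 0.471, exact conditional test). The nearest site had no peak called in unstimulated cells.

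Tlr5, the flagellin receptor, had an intergenic site 46.3 kb upstream (chr1:184838276-184839026) that was kept in both stimulated conditions. WT tags were 12.7 and 9.91 and KO tags 3.03 and 4.21, which gave a WT/KO of 4.18 (2.43 to 7.44, adjusted exact p = 1.03e-07) and 2.35 (1.37 to 4.18, adjusted exact p = 0.00343). A second peak named Tlr5 lay 450.02 kb downstream and was removed with HDL (10.8 WT and 5.60 KO tags, WT/KO 1.93). Tlr3, the receptor of double-stranded RNA, had a site 0.464 to 0.647 kb into the gene, annotated as intron 1 on a GA repeat in unstimulated cells and as 5' UTR with HDL. It was removed in both, with WT and KO tags of 10.2 and 6.35 (WT/KO 1.61, 1.02 to 2.52, adjusted exact p = 0.0514) and of 11.3 and 6.96 (1.63, 1.05 to 2.52, adjusted exact p = 0.0345). Under the scaling to removed peaks the HDL value fell to the other side of 1 (0.959). Its MACS score with HDL (94.0) was the highest among the removed peaks of these genes.

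Cd14, the co-receptor that passes lipopolysaccharide to TLR4, had 2 kept sites, each in 1 condition. With HDL the peak lay at the promoter, 0.112 kb upstream (chr18:36886021-36886820), with 12.9 WT and 3.03 KO tags (WT/KO 4.27, 2.49 to 7.58, adjusted exact p = 6.18e-08). With HDL + CpG the peak lay 6.46 kb downstream of the TSS, with 8.49 WT and 2.32 KO tags (WT/KO 3.67, 1.86 to 7.90, adjusted exact p = 1.62e-04). Tlr1, Tlr6, Tlr9 and the accessory genes Ly96, whose product MD-2 binds lipopolysaccharide with TLR4, and Unc93b1, which carries nucleic acid receptors to endosomes, had no peak of their name. The receptor of CpG was thus without an assigned peak in the cells treated with its ligand.

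**Figure D3:**
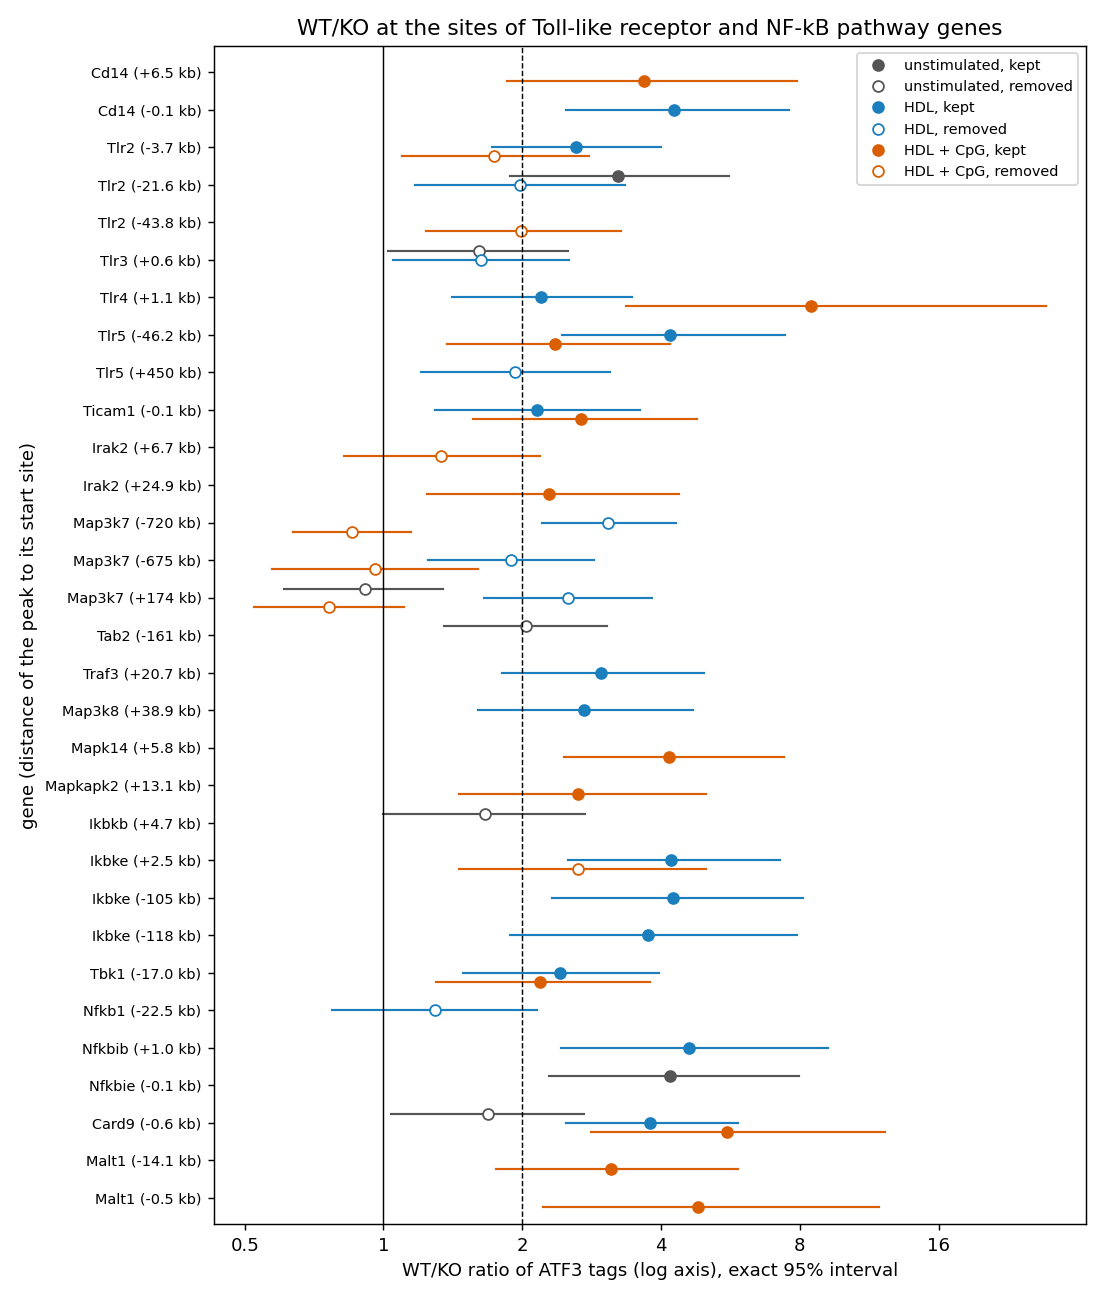
WT/KO ratio of tags at the 31 sites (rows, with the distance of the peak to the TSS) in each condition where a standard peak was called, on a log axis with exact 95% intervals. Filled points are kept and open points removed peaks, and the lines mark 1 and 2. The highest ratio is 8.45 at Tlr4 with HDL + CpG and the lowest 0.763 at Map3k7 with HDL + CpG.

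Of the 4 adaptor genes only Ticam1 had a peak. Ticam1 encodes TRIF, the adaptor of TLR3 and TLR4 on the way to type I interferon. Its promoter site (chr17:56415904-56416703, 0.113 kb upstream with HDL) was kept with HDL, with 9.75 WT and 4.54 KO tags (WT/KO 2.15, 1.29 to 3.60, adjusted exact p = 0.00336), and with HDL + CpG, with 10.7 WT and 4.00 KO tags (2.68, 1.56 to 4.79, adjusted exact p = 5.87e-04). The HDL call was lost under the scaling to removed peaks (WT/KO 1.27, adjusted exact p = 0.513). An AP-1 sequence lay 186 bp from the centre of its HDL peak. Myd88, Ticam2 and Tirap had no peak.

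Among the proximal kinases and ubiquitin ligases, 4 of 12 genes had a standard peak and 2 a kept one. Traf3, a ubiquitin ligase of the interferon branch, had a kept peak in intron 1, 20.7 kb into the gene (chr12:112425005-112425840), with HDL alone. WT and KO tags were 12.1 and 4.09 (WT/KO 2.97, 1.81 to 4.96, adjusted exact p = 1.48e-05), and the AP-1 sequence was 3 bp from the peak centre. Under the scaling to removed peaks its WT/KO was 1.75 (adjusted exact p = 0.0631). Irak2, a kinase of the MyD88 branch, had 2 peaks with HDL + CpG. That in intron 2, 24.9 kb from the TSS on a B2 element, was kept (7.68 WT and 3.37 KO tags, WT/KO 2.28, 1.24 to 4.38, adjusted exact p = 0.0161), and that in intron 1 was removed (8.69 and 6.53 tags, WT/KO 1.33, adjusted exact p = 0.374). Another annotated start of Irak2 lay 5.46 kb from the kept peak. Tab2, the ubiquitin-binding partner of the kinase TAK1, had 1 removed peak 160.9 kb upstream in unstimulated cells. It held 13.7 WT and 6.75 KO tags (WT/KO 2.03, 1.35 to 3.06, adjusted exact p = 0.00141) and lay on a Tigger7 element.

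Map3k7, which encodes TAK1 itself, had 7 standard peaks at 3 sites, and all were removed. The sites lay 720.3 and 675.3 kb upstream and 173.9 kb downstream of the TSS. At the farthest, on a CAGA repeat (chr4:31330539-31331059), WT and KO tags were 27.4 and 8.93 with HDL and 18.2 and 21.3 with HDL + CpG. WT/KO was thus 3.07 (adjusted exact p = 3.25e-11) in one condition and 0.856 (adjusted exact p = 0.451) in the other. At the TC repeat 675.3 kb upstream the HDL ratio was 1.89 (1.25 to 2.85) and the HDL + CpG ratio 0.960 (0.574 to 1.61). At the downstream site unstimulated cells had a ratio of 0.912 (0.608 to 1.34), HDL cells one of 2.51 (1.65 to 3.83) and HDL + CpG cells one of 0.763 (0.523 to 1.11). The site is annotated on a TC repeat at the centre of its unstimulated peak alone. WT exceeded KO at these sites with HDL and in no other condition. The standard peaks of other genes on simple, low-complexity or satellite repeats had a median WT/KO of 1.64 in unstimulated, 2.39 in HDL and 1.00 in HDL + CpG cells, and their kept share was 12.8%, 54.9% and 2.61%. Over all standard peaks of other genes the median was 1.66, 2.41 and 1.42, and off such repeats it was 1.68, 2.41 and 1.76. The ratio was thus highest with HDL on and off repeats, as at Map3k7, and its median was near 1 with HDL + CpG on repeats. The part of these shifts in the Map3k7 values was not tested.

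Of the 4 IKK and IKK-related kinase genes, Tbk1 and Ikbke had kept peaks. TBK1 and IKK-epsilon phosphorylate IRF3 and set off the interferon response. The Ikbke site in intron 2, 2.52 kb into the gene (chr1:133173243-133173993), had 14.0 WT and 3.33 KO tags with HDL and was kept (WT/KO 4.20, 2.51 to 7.24, adjusted exact p = 1.83e-08). With HDL + CpG it had 8.89 and 3.37 tags (WT/KO 2.64, 1.46 to 5.01, adjusted exact p = 0.00237) and was removed, although it was above the 2-fold limit. KO tags were nearly equal in both conditions. Another annotated start of Ikbke lay 0.090 kb from the peak centre with HDL and 0.162 kb with HDL + CpG. A further 2 peaks named Ikbke, 105.0 and 118.3 kb upstream inside intron 4 of Srgap2, were kept with HDL (WT/KO 4.25, 2.32 to 8.14, and 3.75, 1.88 to 7.89). The farther of these lay on a TC repeat and was the only kept peak of the pathway genes on a simple repeat. The Tbk1 site, 17.0 kb upstream inside intron 17 of Xpot (chr10:121040391-121041301), was kept in both conditions, with 11.3 WT and 4.69 KO tags with HDL (WT/KO 2.42, 1.49 to 3.97, adjusted exact p = 4.75e-04) and 10.1 and 4.63 tags with HDL + CpG (2.18, 1.30 to 3.78, adjusted exact p = 0.00617). Of these calls, that of Tbk1 with HDL was lost under the scaling to removed peaks (WT/KO 1.42, adjusted exact p = 0.263). Ikbkb, the catalytic subunit that phosphorylates the NF-kB inhibitors, had 1 removed peak in its intron 2 in unstimulated cells (8.35 WT and 5.03 KO tags, WT/KO 1.66, 0.998 to 2.74, adjusted exact p = 0.0671). Chuk had none.

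Among the NF-kB subunits and inhibitors, kept peaks were found at 2 inhibitor genes and at no subunit gene. Nfkbie, which encodes the inhibitor IkB-epsilon, had a promoter peak 0.100 kb upstream of the TSS (chr17:45692160-45692971) in unstimulated cells alone. It held 9.42 WT and 2.25 KO tags (WT/KO 4.19, 2.28 to 7.97, adjusted exact p = 5.55e-06). AP-1 lay 69 bp and the NF-kB consensus 18 bp from its centre. Nfkbib, which encodes IkB-beta, had a peak in intron 1, 1.02 kb into the gene (chr7:29550189-29550865), with HDL alone. WT and KO tags were 9.75 and 2.12 (WT/KO 4.60, 2.43 to 9.22, adjusted exact p = 1.01e-06), and an AP-1 sequence lay 135 bp from its centre. Of the subunit genes only Nfkb1, which encodes p105 and p50, had a standard peak, 22.5 kb upstream on a GA repeat with HDL (7.65 WT and 5.90 KO tags, WT/KO 1.30, 0.772 to 2.15, adjusted exact p = 0.342), and it was removed. Nfkb2, Rel, Rela and Relb had no peak.

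Card9 and Malt1 carried kept promoter peaks. CARD9, BCL10 and MALT1 form the complex that links C-type lectin receptors to NF-kB. The Card9 promoter (chr2:26215203-26216140, 0.604 kb upstream of the TSS with HDL) was 1 of 2 sites with a standard peak in all 3 conditions, the other being the removed Map3k7 site. WT tags there were 9.16 in unstimulated cells, 19.5 with HDL and 11.7 with HDL + CpG, and KO tags were 5.43, 5.15 and 2.11. WT was highest with HDL, KO lowest with HDL + CpG. WT/KO was 1.69 (1.04 to 2.72, adjusted exact p = 0.0472) in unstimulated cells, where the peak was removed, and 3.79 (2.49 to 5.87, adjusted exact p = 2.18e-10) with HDL and 5.57 (2.82 to 12.2, adjusted exact p = 1.55e-07) with HDL + CpG, where it was kept. The TGATGCAA sequence shown above lay 2 bp from the centre of the HDL peak. Malt1, which encodes the protease of the complex, had 2 kept sites with HDL + CpG alone. They lay at the promoter, 0.504 kb upstream (chr18:65589845-65590449, 8.09 WT and 1.68 KO tags, WT/KO 4.80, 2.22 to 11.9, adjusted exact p = 3.18e-05), and 14.1 kb upstream (10.5 WT and 3.37 KO tags, WT/KO 3.12, 1.75 to 5.86, adjusted exact p = 1.56e-04). Bcl10 had no peak of its own name.

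In the MAP kinase branch, 3 of 4 genes had a kept peak of their name, each in 1 condition. Map3k8, which encodes the kinase TPL2 upstream of ERK, had an intergenic peak 38.9 kb downstream of its TSS with HDL (10.3 WT and 3.78 KO tags, WT/KO 2.72, 1.60 to 4.68, adjusted exact p = 1.78e-04). Mapk14, the gene of p38-alpha, had a peak in intron 2, 5.79 kb into the gene (chr17:28834907-28835695), with HDL + CpG (15.8 WT and 3.79 KO tags, WT/KO 4.16, 2.47 to 7.38, adjusted exact p = 3.59e-08). Mapkapk2, which encodes the p38 substrate kinase MK2, had one in intron 1, 13.1 kb into the gene, with HDL + CpG (8.89 and 3.37 tags, WT/KO 2.64, 1.46 to 5.01, adjusted exact p = 0.00237). A further kept peak inside the Mapk14 gene, assigned to Mapk13, was called with HDL (chr17:28872546-28873263, 5.66 kb from an annotated Mapk14 start, 11.9 WT and 4.24 KO tags, WT/KO 2.80). Mapk8 had no peak.

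**Figure D4:**
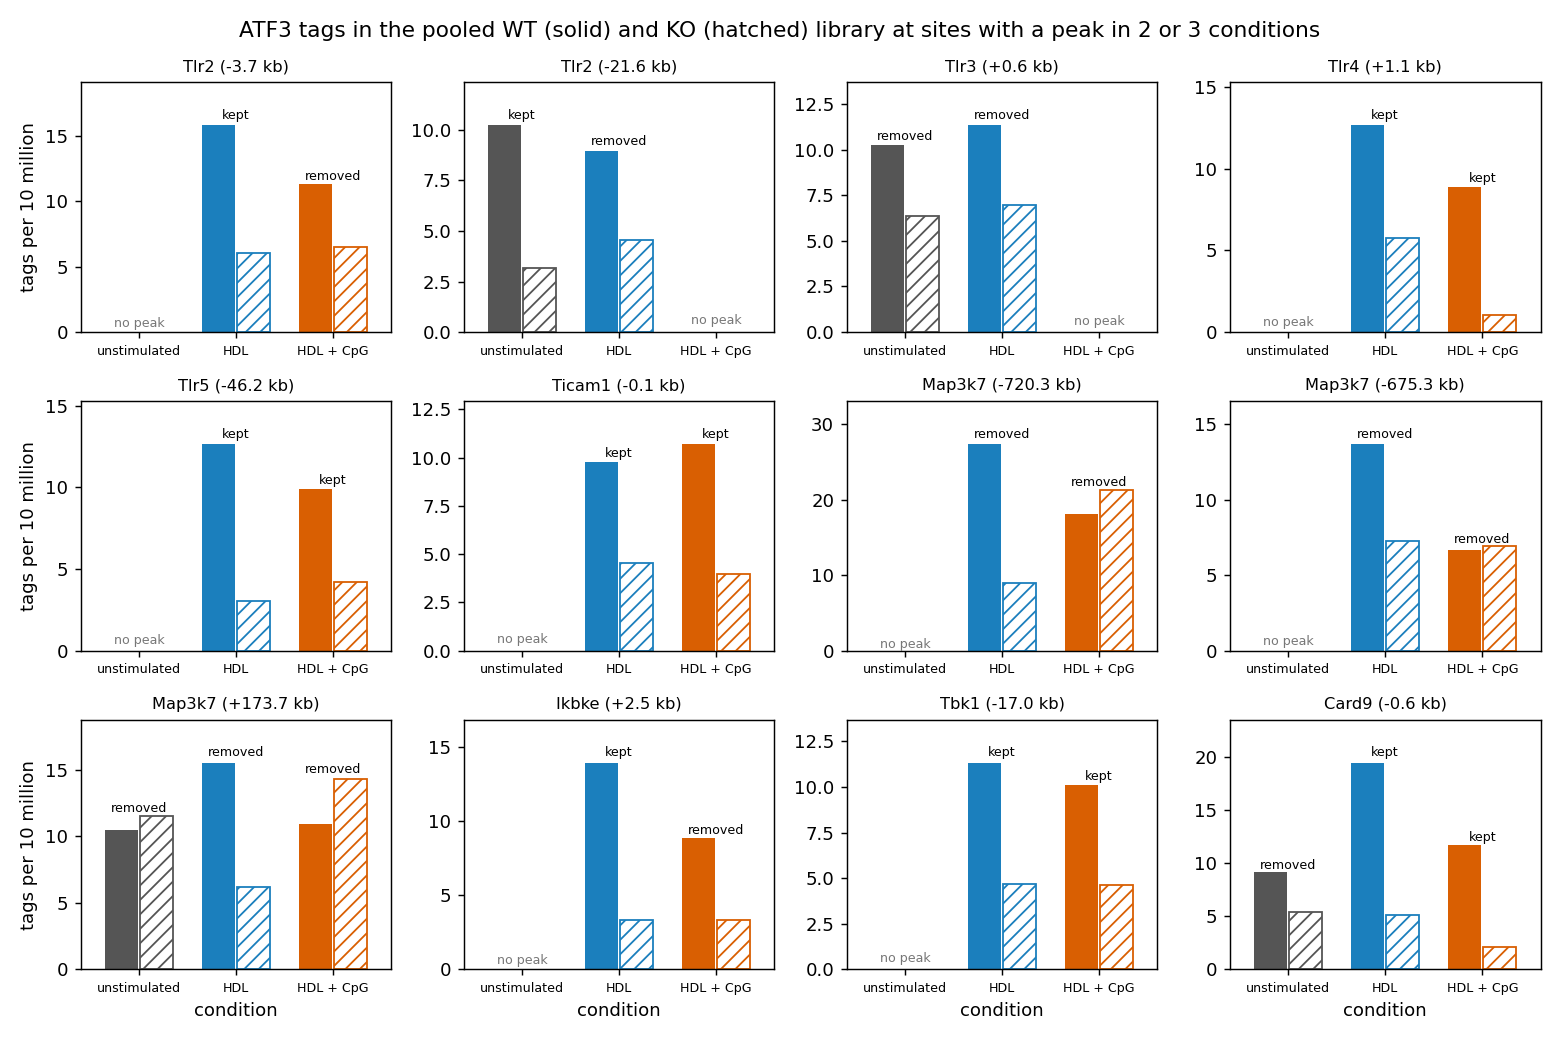
Normalised tags in the pooled WT (solid bars) and KO (hatched bars) library at the 12 sites of pathway genes with a standard peak in 2 or 3 conditions, with the outcome of KOIN correction above each pair. Each bar is 1 pooled library and has no replicate error. Tags are totals per peak, and the width of a peak differs between conditions. At Card9, WT tags were 9.16, 19.5 and 11.7 over the conditions, and at the Map3k7 sites WT exceeded KO with HDL alone.

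WT/KO was compared between conditions at sites with overlapping standard peaks by a two-sided exact conditional test of the ratio of both ratios, adjusted over all such sites of the pair. HDL + CpG and HDL differed at 34.7% of 2378 shared sites, 765 lower and 60 higher with HDL + CpG, and at 3 of the 10 shared sites of the pathway genes. The median ratio of ratios over all shared sites of this pair was 0.707. Counts of lower and higher sites here take library totals as offset and were not made with the scaling to removed peaks. Tlr4 was among the few higher sites, with a ratio of ratios of 3.84 (1.32 to 13.5, adjusted exact p = 0.0281, exact conditional test). The interval is wide because the KO library held 5 reads. Per kb of peak, WT tags at Tlr4 differed little between these conditions and KO tags were lower with HDL + CpG. The Map3k7 sites 720.3 kb upstream and 174.0 kb downstream were lower with HDL + CpG, by ratios of 0.279 (0.178 to 0.437, adjusted exact p = 6.53e-08) and 0.304 (0.172 to 0.538, adjusted exact p = 1.28e-04). The other 7 sites (Ikbke, Tlr5, Tbk1, Ticam1, Card9, Tlr2 and the third Map3k7 site) had ratios of 0.509 to 1.47 and did not pass, with intervals that reached from 0.252 to 3.60. HDL + CpG and unstimulated cells differed at 26.6% of 1735 shared sites and at 1 of 2 of the pathway genes. This was the Card9 promoter, where WT/KO was 3.30 times as high with HDL + CpG (1.39 to 8.26, adjusted exact p = 0.0201). In this pair 419 sites were lower and 42 higher, and the median ratio of ratios over all shared sites was 0.757. HDL and unstimulated cells differed at 20.5% of 2006 shared sites and at 1 of 4 of the pathway genes, the downstream Map3k7 site (2.75, 1.53 to 4.94, adjusted exact p = 0.00381). For Card9 this ratio was 2.25 (1.17 to 4.33, adjusted exact p = 0.0613), and for Tlr2 and Tlr3 it was 0.613 (0.284 to 1.32) and 1.01 (0.534 to 1.91). The HDL libraries enter 2 of the 3 pairs, so these values are not independent of each other.

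Counted over all 45 standard peaks, the kept peaks of the pathway genes were nearer to start sites than the removed ones, an order that depended largely on Map3k7. By the deposited annotation, kept peaks were at a promoter in 7 of 26 cases and within 10 kb of the TSS in 14. Removed ones were so in 1 and 7 of 19 cases. Beyond 100 kb lay 2 kept and 9 removed peaks. These 9 were all the peaks of Map3k7, the Tab2 peak and the second Tlr5 peak, and no Map3k7 peak lay within 10 kb. Apart from Map3k7, the share within 10 kb was not lower among removed than among kept peaks. Among other genes, 6.53% of kept and 2.97% of removed peaks were at a promoter and 28.5% and 18.6% within 10 kb, so the same order was seen there. On simple or low-complexity repeats lay 1 of 26 kept and 7 of 19 removed peaks, 5 of the latter at Map3k7, beside 18.1% and 30.0% of the kept and removed peaks of other genes. These counts were not tested, since the genes were chosen with results known and peaks of 1 site recur across conditions.

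**Figure D5:**
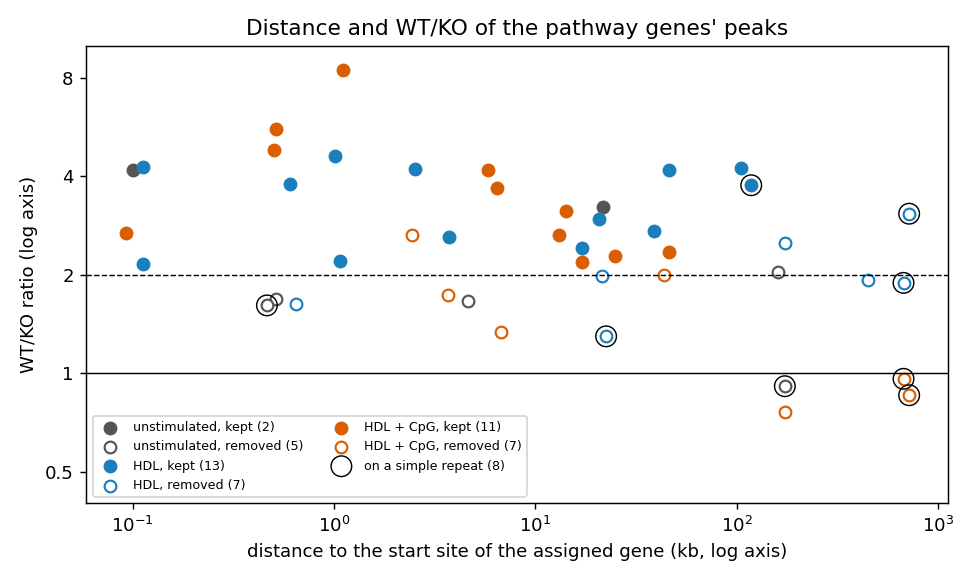
WT/KO ratio against the distance of the peak to the start site of its gene (kb), both on log axes, for the 45 standard peaks of the pathway genes, with kept peaks filled, removed peaks open and those on simple repeats circled. The lines mark a ratio of 1 and 2. Of the 11 peaks beyond 100 kb, 2 were kept.

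A separate list held 58 further genes of the pathway. Of these, 3 of 6 genes with a standard peak also had a KOIN-corrected peak in unstimulated cells (18.8 to 81.2%), beside 24.9% of other genes. With HDL this was 12 of 15 (54.8 to 93.0%) beside 63%. With HDL + CpG it was 7 of 10 (39.7 to 89.2%) beside 34.7%, which lay below the interval. Counted by peaks, KOIN correction left 3 of 6 (18.8 to 81.2%) in unstimulated cells, beside 20.6% of those of other genes. With HDL it left 16 of 21 (76.2%, 54.9 to 89.4%) beside 54.8%, which lay just below the interval. With HDL + CpG it left 6 of 14 (42.9%, 21.4 to 67.4%) beside 29.6%, which lay inside the interval. In the same order of conditions, 5 of 6, 17 of 21 and 9 of 14 standard peaks of these genes had more WT reads at an adjusted p under 0.05, beside 56.2%, 79.5% and 40.7% of those of other genes.

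Peaks near a gene can carry the name of a neighbour. Within 50 kb of an annotated start of 1 of the 44 genes, in GENCODE for the NCBI Build 37 assembly, 25 standard peaks were assigned to another gene, and 15 of them were kept. At any distance, 20.6% (unstimulated), 54.8% (HDL) and 29.6% (HDL + CpG) of the standard peaks of other genes were kept. A share for peaks equally near to other genes was not computed. Map3k8 had such a peak 1.75 kb from one of its annotated starts in unstimulated cells, with 10.8 WT and 1.59 KO tags (WT/KO 6.78, adjusted exact p = 1.74e-09, exact binomial test). Near Cd14, a peak 17.7 to 17.9 kb from its start was kept in all 3 conditions (WT/KO 2.58 unstimulated, 2.26 with HDL and 3.03 with HDL + CpG). Near Ticam1, a peak about 10.2 kb away was removed in unstimulated cells and kept with HDL (WT/KO 2.05) and with HDL + CpG (6.40). Of the 23 genes without a peak of their name, 5 had such a peak (Tlr9, Unc93b1, Tab1, Ripk1 and Bcl10), and it was kept in 1 or more conditions at all of these but Ripk1. The peak near Bcl10, about 39.9 kb away, was kept with HDL (14.5 WT and 4.84 KO tags, WT/KO 2.99) and with HDL + CpG (9.91 and 1.89 tags, WT/KO 5.23). Which gene a distal peak acts on cannot be read from these lists. The remaining 18 genes, Myd88, Rela, Rel and Nfkb2 among them, had no standard peak of any name within 50 kb.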

How the data were processed

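A standard and a KOIN-corrected peak list were used per condition. The authors joined the replicates, aligned reads to mm9 with Bowtie (best position of multi-mapping reads kept), used MACS for peak calling, and took annotation from HOMER with RefSeq start sites. The submitters' processing notes name CASAVA 1.8, Bowtie 0.12.8, MACS 1.4.2 and HOMER 4.3. The deposited signal is the number of tags per peak, scaled by the authors to a library size of 10000000. The deposited score is that of MACS. The lists also hold a WT/KO column of the authors, which was not used, and a barcode list was not used.

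Tags were turned back into reads with the library totals in the headers, and all values lay within 0.005 tags of whole reads. Tests were exact binomial tests and exact conditional tests with Benjamini-Hochberg adjustment over all peaks or shared sites, called at 0.05 and tested on simulated data. Shares have Wilson and ratios exact 95% intervals. Sequences came from the NCBIM37 genome, the assembly of mm9, inside whose chromosomes all 16759 peaks lay. Start sites implied by the deposited distances were within 100 bp of a GENCODE start for 34 of 45 standard peaks. Repeat annotation and gene names are those of the lists. The 44 genes, the 58 further genes and the tests were chosen with earlier results of these data known. Every gene with a peak is named, with full values for sites with a KOIN-corrected peak, promoter peaks and sites in several conditions. Alternatives were score minimums of 60 and 100, distance limits of 10 and 100 kb, lists without satellites or simple repeats, an overlap of 50%, scaling to removed peaks, a threshold of 0.01, a WT/KO of at least 2, and motif windows of 50 bp and the whole peak. Software was scipy 1.17.1, pandas 2.3.3, matplotlib 3.10.9, samtools 1.23.1, pysam 0.24.0 and numpy 2.4.6 under Python 3.11.15.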

Additional observations from a re-analysis of the deposited data

Results flagged for a closer look

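The WT/KO ratio differed between conditions by the exact conditional test at 4 sites of the pathway genes, in 5 comparisons. At the Tlr4 intron the ratio with HDL + CpG was 3.84 times that with HDL. Per kb of peak, WT tags there were 13.8 with HDL and 14.9 with HDL + CpG, and KO tags 6.29 and 1.76. At the Card9 promoter the ratio with HDL + CpG was 3.30 times that in unstimulated cells. At the Map3k7 site 173.9 kb downstream the ratio with HDL was 2.75 times that in unstimulated cells, and the ratio with HDL + CpG was 0.304 times that with HDL. At the Map3k7 site 720.3 kb upstream, on a CAGA repeat, the ratio with HDL + CpG was 0.279 times that with HDL. Standard peaks of other genes on CAGA repeats had a median WT/KO of 2.77 with HDL and 1.01 with HDL + CpG. All standard peaks of other genes had one of 2.41 and 1.42. The part of these shifts in the Map3k7 values was not tested. Each condition is 1 pooled library per genotype, so condition and library cannot be told apart.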

How the results depend on the processing

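No paired analysis was possible because each group is 1 pooled library, and for the same reason no replicate could be left out. With a score of at least 60, 1, 7 and 1 standard peaks of the pathway genes were left in unstimulated, HDL and HDL + CpG cells. The kept share of genes and of peaks was then 0% in unstimulated and in HDL + CpG cells, beside 8.24% and 19.4% of the peaks of other genes. More WT reads were found at 1, 7 and 1 peaks, beside 57.1%, 81.6% and 32.4% of those of other genes. With a score of at least 100 no peak was left. Within 10 kb, 87.5% of the HDL peaks were kept (7 of 8, 52.9 to 97.8%) beside 59.6% of those of other genes. With HDL + CpG these were 6 of 9 peaks (66.7%, 35.4 to 87.9%) beside 44.4%. Both shares of other genes lay inside the intervals. Scaling to the median of removed peaks gave 2 of 7 peaks with more WT reads in unstimulated and 8 of 20 in HDL cells. For other genes this was 16.9% and 29.5% of the peaks. The Tlr3 peak with HDL turned to a WT/KO of 0.959 (adjusted p = 0.949, exact binomial test). AP-1 within 50 bp of the centre was found in 0% of the unstimulated peaks. Of 57 summaries under alternatives, 46 stayed within 1.5 times the count or within the interval of the share. Of 45 single peaks, the scaling to removed peaks ended the call at 13, reversed 1, and at the unstimulated Map3k7 peak gave more KO reads (WT/KO 0.610, adjusted p = 0.0406, exact binomial test). A threshold of 0.01 ended 5 calls. All 16 comparisons between conditions stayed on the same side of the threshold under the other offset and the 50% overlap. Taking all standard peaks within 50 kb of an annotated start, whatever their name, an alternative chosen after seeing the data, 4 of 10, 20 of 28 and 15 of 21 peaks were kept in unstimulated, HDL and HDL + CpG cells. At any distance, 20.6%, 54.8% and 29.6% of the standard peaks of other genes were kept. Their share within the same 50 kb limit was not computed. Peaks held 28 to 104 WT and 5 to 101 KO reads, at which a WT/KO of 1.99 (Tlr2) had an interval of 1.24 to 3.28.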
